A study of Mus musculus with 24 samples.

Results

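RNA-seq of mouse adrenal glands and neuroblastomas was examined for 10 genes that govern and feed steroid synthesis in the adrenal cortex. The genes were taken by name from the deposited expression table of 21833 protein-coding genes, and all 10 were found. Nr5a1 and Nr0b1 encode transcriptional regulators of the cortex. Mc2r and Mrap encode the receptor for adrenocorticotropic hormone (ACTH) and its accessory protein. Scarb1, Soat1, Lipe, Npc1 and Abca1 move cholesterol and its esters into, within and out of the cell, and Akr1b7 encodes an aldose reductase of the cortex.

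The table held 24 libraries in 4 groups. AG were adrenal glands of mice with the genotype CRE - (n = 3), and AGM were adrenal glands of mice with the genotype MYCN +/-, CRE + (n = 5). TI were neuroblastomas of mice with an IGF2BP1 transgene, of which 7 had the genotype IGF2BP1 +/+, CRE + and 1 the genotype IGF2BP1 +/-, CRE + (n = 8). TIM were neuroblastomas labelled IMP1/MYCN, CRE + (n = 8), IMP1 being another name of IGF2BP1. The transgenes sat at the Rosa26 locus behind a stop cassette that an iCRE driven by Dbh removes, so they are switched on in cells that make noradrenaline and not in cortex cells. The study kept the AGM mice for a full year and culled the tumor mice when their condition required it, so age differed with the group. AG shared no sequencing run with AGM or TIM.

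Steroid-making cells of the cortex take up cholesterol esters from high-density lipoprotein through the receptor SR-BI (Scarb1), store them in lipid droplets after esterification by SOAT1, and release them with hormone-sensitive lipase (Lipe). Free cholesterol leaves lysosomes through NPC1 and leaves the cell through ABCA1. ACTH binds MC2R, which needs MRAP to reach the cell surface, and raises cAMP. Steroidogenic factor 1 (SF-1, Nr5a1) switches on much of this machinery, and DAX-1 (Nr0b1) represses SF-1. Chromaffin cells and the neuroblastomas that arise from their lineage do not make steroids.

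Values are FPKM, that is, fragments divided by the length of the gene in kilobases and by an effective library size in units of 1000000 fragments. Multiplied by length, 100% of the values were whole numbers of steps within a tolerance of 0.01, which returned the read number behind it. These recovered reads are values after the authors' batch correction. In these units the effective library size was 105 to 107 in AG and 74.7 to 134 over all libraries. Recovered reads summed to 17434796 to 17893013 in AG libraries and 12468968 to 21353172 in TI, but to 116740738 to 1170004708 in AGM. TIM libraries held 58530450 to 888626365. The values were not checked against reads from before the correction, so levels in AGM and TIM are given as deposited. In AGM and TIM, 126 genes above 1000 FPKM in at least 1 library held 64.5% to 98.6% of the recovered reads, against 0.217% to 2.21% in AG and TI. Outside these genes each library held 12334076 to 23683176 reads. Mouse Igf2bp1 had 0 to 16 reads in TI, 3 to 81 in TIM and 1 to 18 in the glands, and the transgene itself was not a feature of the table. The columns carry no sample number, so libraries are numbered here in column order within a group and cannot be tied to a sequencing run or a tumor site.

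The cortex was present in AG by its enzymes. Star was at 182 ± 3.17 FPKM (SD, n = 3), Hsd3b1 at 234 ± 13.2, Cyp21a1 at 134 ± 4.59, Cyp11b1 at 78.9 ± 2.86 and Cyp11a1 at 16.3 ± 0.822. Cyp11b2, which makes aldosterone in the outermost zone, had only 6 to 11 reads per AG library, whereas AGM libraries held 40928 to 99302. Nr0b1 shared this pattern, as shown further on. In the tumors the highest value of Star was 1.69 FPKM and that of Hsd3b1 3.54 FPKM. The libraries are bulk tissue, so fewer cortex cells and less RNA per cortex cell cannot be told apart. By the labels most tumor samples came from sites outside the adrenal gland, so a low value in a tumor need not be a loss.

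The 250 bases before the start of Akr1b7, Nr0b1 and Soat1 are printed because these genes took separate courses in AGM: Akr1b7 and Nr0b1 rose the most of the 10, and Soat1 did not rise. They are RefSeq sequences on GRCm38.p6, at chr6:34412112-34412361 (plus strand), chrX:86191525-86191774 (plus strand) and chr1:156474329-156474578 (minus strand), written 5′ to 3′ toward the start. Capitals mark an SF-1 half-site, AAGGTCA, here on the opposite strand.
Akr1b7: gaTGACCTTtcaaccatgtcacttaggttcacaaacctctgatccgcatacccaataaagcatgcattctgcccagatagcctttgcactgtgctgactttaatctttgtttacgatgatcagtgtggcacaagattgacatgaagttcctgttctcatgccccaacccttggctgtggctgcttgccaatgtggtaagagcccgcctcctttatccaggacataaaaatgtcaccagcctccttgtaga
Nr0b1: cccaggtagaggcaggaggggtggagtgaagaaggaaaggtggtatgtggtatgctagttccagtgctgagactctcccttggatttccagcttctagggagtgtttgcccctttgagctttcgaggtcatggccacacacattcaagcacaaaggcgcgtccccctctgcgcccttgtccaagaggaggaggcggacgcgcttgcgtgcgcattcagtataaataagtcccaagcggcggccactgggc
Soat1: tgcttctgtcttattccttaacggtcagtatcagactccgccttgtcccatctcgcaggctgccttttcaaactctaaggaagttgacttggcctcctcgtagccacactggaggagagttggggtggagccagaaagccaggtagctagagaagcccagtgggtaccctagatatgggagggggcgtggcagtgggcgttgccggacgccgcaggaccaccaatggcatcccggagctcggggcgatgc

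The motifs searched on both strands were AAGGTCA and its longer form CAAGGTCA, which contains it, for SF-1, and the cAMP response element TGACGTCA. Of all 32851 promoter windows of 250 bases, 4.08% held AAGGTCA, 1.33% held CAAGGTCA and 1.55% held TGACGTCA. RefSeq windows were found for Nr0b1, Soat1, Abca1, Akr1b7 and Lipe, the last with 2 start sites. In these 6 windows the 1 match was AAGGTCA in Akr1b7, 248 to 242 bases before the start. A match is a description of these letters, not a binding site. Nr5a1, Mrap and Scarb1 had no window in the table used, and Mc2r and Npc1 were not searched.

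The genes lie apart from each other on GRCm39. Nr5a1 (ENSMUSG00000026751) spans chromosome 2, 38581468 to 38604642, with 7 exons in its canonical transcript, and Nr0b1 (ENSMUSG00000025056) chromosome X, 85235338 to 85239554, with 2 exons. Mc2r (ENSMUSG00000045569) and Npc1 (ENSMUSG00000024413) are on chromosome 18, at 68539971 to 68563481 and 12322749 to 12369550. Mrap (ENSMUSG00000039956) is on chromosome 16 at 90535095 to 90546673, Scarb1 (ENSMUSG00000037936) on chromosome 5 at 125353547 to 125418176, and Soat1 (ENSMUSG00000026600) on chromosome 1 at 156252095 to 156303864. Lipe (ENSMUSG00000003123) is on chromosome 7 at 25078880 to 25098135, Abca1 (ENSMUSG00000015243) on chromosome 4 at 53030787 to 53159900, and Akr1b7 (ENSMUSG00000052131) on chromosome 6 at 34389021 to 34400449.

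**Figure D1:**
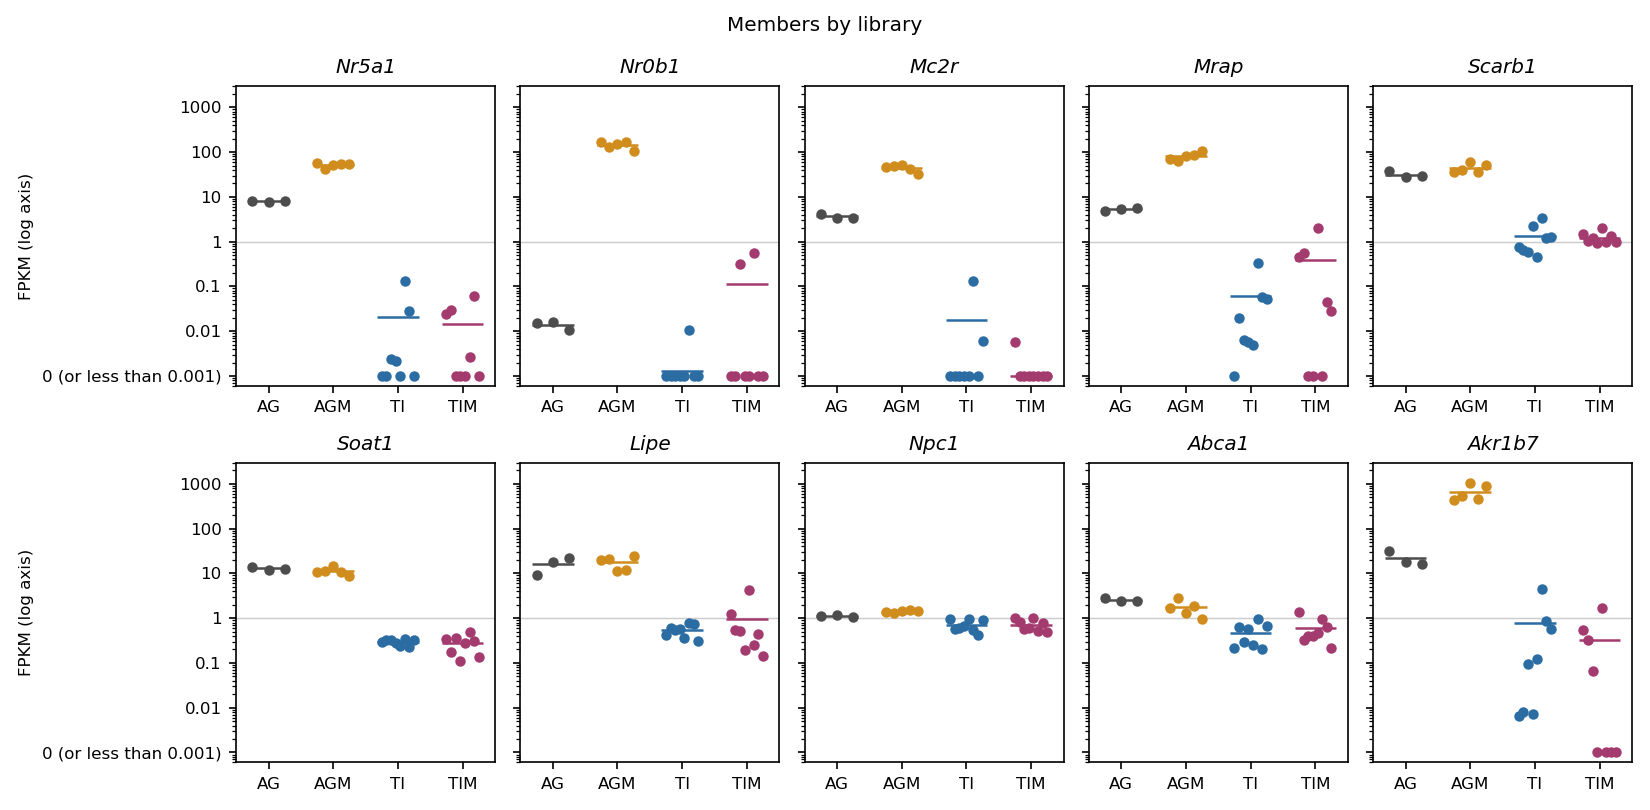
FPKM of each gene on a log axis, 1 panel per gene, with a point for each library and a line at the group mean; values of 0 or below 0.001 are drawn at 0.001, and the grey line marks 1 FPKM. Nr5a1, Nr0b1, Mc2r, Mrap and Akr1b7 sat higher in all 5 AGM libraries than in any AG library, while Soat1, Lipe, Scarb1 and Abca1 overlapped between these groups.

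TI was compared with AG to ask where the 10 genes stand in IGF2BP1-driven tumors. Of the 10 genes, 9 were lower in TI at a limma FDR below 0.05 and none was higher, where 27.7% of the 10171 tested genes were lower and 24.6% higher. For the same 9 genes every TI library lay below every AG library, as did 27.3% of tested genes. The median log2 fold change of the 10 genes was -2.85, and that of all tested genes -0.00206. All 10 genes passed the expression filter of 1 FPKM in 3 libraries, but Scarb1 alone would have passed on the tumors, since each other gene reached 1 FPKM in at most 2 of the 16 tumor libraries. Genes that pass through the glands had to be higher there, so these counts and medians are a description. The exception to the fall, Nr0b1, was near 0 in both groups.

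The regulator Nr5a1 was at 8.31, 7.66 and 7.91 FPKM in AG. In TI it ranged from 0 to 0.130 FPKM with a median of 0.00108, and 4 of 8 libraries had no read. Every TI library was thus far below the glands, at a mean of 0.255% of the AG mean. Its log2 fold change of FPKM + 1, a scale that understates changes of low values, was -3.13 ± 0.075 (SE; limma FDR 8.55e-20). A count of 0 for Nr5a1 in TI allows up to 3 reads, or 0.00553 to 0.00947 FPKM, and covers counting error only.

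Nr0b1 had 3, 3 and 2 reads in the AG libraries, or 0.0155, 0.0158 and 0.0104 FPKM. In TI, 7 of 8 libraries had none and 1 had 2 reads. Both groups were therefore at or under 3 reads, and no fold is given. The limma change was -0.018 (limma FDR 0.966). A fit to the TI and AG libraries alone put the same change past the threshold (limma FDR 0.00746).

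The ACTH receptor and its accessory protein were both near 0 in TI. Mc2r was at 4.18, 3.401 and 3.397 FPKM in AG, and in TI it had no read in 6 of 8 libraries and 23 reads (0.134 FPKM) in the highest. Its log2 fold change was -2.19 ± 0.096 (SE; limma FDR 7.81e-15). Mrap was at 4.83, 5.35 and 5.58 FPKM in AG and from 0 to 0.330 FPKM in TI, with a median of 0.0130. It fell by 2.57 ± 0.24 on the log2 scale (SE; limma FDR 6.83e-09). All TI libraries were below all AG libraries for both genes.

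Among the genes of cholesterol ester supply, Soat1 was the most uniform in TI. It was at 14.3, 12.2 and 12.6 FPKM in AG and at 0.230 to 0.339 FPKM in TI (median 0.306), with 168 to 350 reads in each TI library. It was thus reduced to a mean of 2.25% of AG but readable in every tumor (log2 fold change -3.44 ± 0.10, SE; limma FDR 9.89e-18). Scarb1, the SR-BI receptor, was at 37.6, 27.1 and 29.7 FPKM in AG. In TI it spread from 0.451 to 3.44 FPKM (median 0.991), a 7.63-fold range among tumors, and every tumor was below every gland (log2 fold change -3.89 ± 0.26, SE; limma FDR 1.38e-11).

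Lipe, the hormone-sensitive lipase that also works in fat cells, was at 8.98, 17.6 and 22.1 FPKM in AG and at 0.304 to 0.765 FPKM in TI (median 0.546). Its log2 fold change was -3.41 ± 0.34 (SE; limma FDR 1.81e-08). The glands differed among themselves by 2.46-fold, in the order of their adipocyte markers. The summed FPKM of 12 adipocyte markers was 214, 1114 and 1515 in AG libraries 1, 2 and 3, against 2.67 to 12.9 in TI. In TI, 4 of the 5 defining markers, Adipoq, Plin1, Cidec and Lep, averaged below 0.1 FPKM, and Fabp4 averaged 0.9998 FPKM. The part of adipocytes in the Lipe difference was not tested.

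Npc1 and Abca1, which most cells use, stood closer to AG. Npc1 was at 1.09, 1.16 and 1.08 FPKM in AG and at 0.420 to 0.958 FPKM in TI (median 0.636), a mean of 63.3% of AG. The groups did not overlap (log2 fold change -0.32 ± 0.11, SE; limma FDR 0.0157), but the call was lost without AG library 2 (limma FDR 0.0635). Abca1 was at 2.84, 2.45 and 2.41 FPKM in AG and at 0.203 to 0.945 FPKM in TI (median 0.427), a mean of 18.4% of AG. It fell by 1.29 ± 0.19 on the log2 scale (SE; limma FDR 6e-06). The summed FPKM of 12 macrophage markers was 52.1 to 89.7 in AG and 25.1 to 98.0 in TI, so these ranges overlapped. The markers did not move together, as Csf1r and Mrc1 averaged 42.3% and 39.9% of AG in TI, and Cd68 and C1qb 136% and 107%. The part of macrophages in the Abca1 difference was not tested.

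Akr1b7 was at 31.0, 18.2 and 16.03 FPKM in AG. In TI it ran from 0.00642 to 4.58 FPKM with a median of 0.108, a 714-fold range among tumors, and every library had at least 1 read. It was the most variable of the 10 genes in TI by that ratio among the genes without a library at 0. Its log2 fold change was -3.91 ± 0.42 (SE; limma FDR 5.6e-08).

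**Figure D2:**
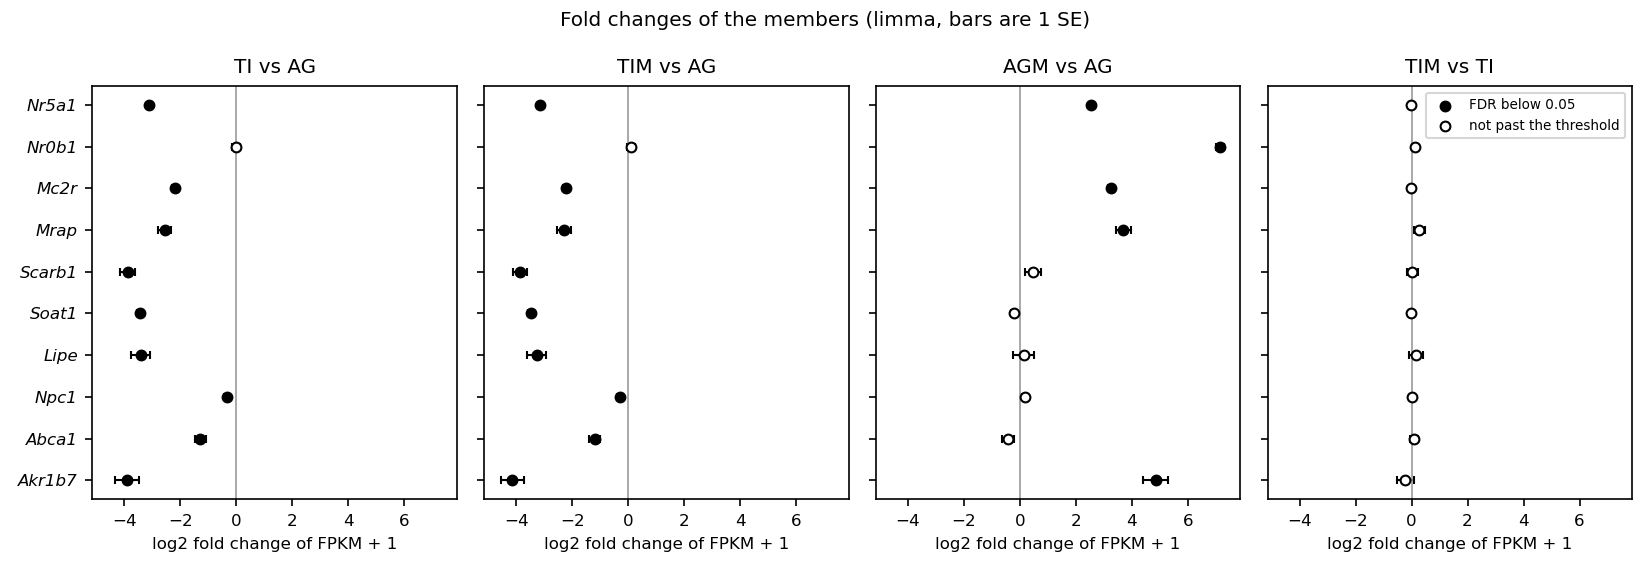
Log2 fold change of FPKM + 1 for each gene in 4 comparisons, with bars of 1 SE; filled points have a limma FDR below 0.05. Both tumor groups sit left of AG for all genes but Nr0b1, the 5 filled points of AGM vs AG lie to the right of 0, and TIM vs TI holds no filled point.

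TIM was compared with AG in the same way, with the sequencing run and the group confounded. Again 9 of 10 genes were lower and none higher, against 28.5% of tested genes lower and 22.5% higher, and for these 9 no TIM library reached an AG library (24.7% of tested genes). These counts too are a description, since all of these genes but Scarb1 passed the expression filter through the glands. With the same AG libraries in both comparisons, the values are given side by side and are not independent. The TIM mean was 0.184% of the AG mean for Nr5a1, 0.0198% for Mc2r, 7.46% for Mrap, 3.93% for Scarb1, 2.11% for Soat1, 5.89% for Lipe, 64.8% for Npc1, 23.2% for Abca1 and 1.52% for Akr1b7. Calls among all genes split 44.2% higher to the rest lower as deposited, and 31.5% higher with limma-voom on recovered reads.

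Mc2r was the emptiest gene in TIM, with 1 read in 1 of 8 libraries and 0 in the others. At 3 reads allowed for a count of 0, its limit per library was 0.0138 to 0.0206 FPKM. The log2 fold change was -2.21 ± 0.096 (SE; limma FDR 5.74e-15). Nr5a1 had no read in 4 TIM libraries and at most 29 reads (0.0598 FPKM), with a log2 fold change of -3.14 ± 0.075 (SE; limma FDR 8.12e-20). Nr0b1 had no read in 6 TIM libraries but 55 and 93 reads (0.321 and 0.571 FPKM) in libraries 3 and 6. Its limma change of 0.11 was not past the threshold (limma FDR 0.518), and with limma-voom it was -1.03 (FDR 0.655).

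Mrap was at 0 to 2.04 FPKM in TIM (median 0.0363) and fell by 2.28 ± 0.24 on the log2 scale (SE; limma FDR 4.52e-08). Its highest library, TIM 5, had 294 reads of Mrap but none of Mc2r or Nr5a1. Lipe was at 0.145 to 4.33 FPKM (median 0.480), a 29.9-fold range, with the highest value in the same library (log2 fold change -3.26 ± 0.34, SE; limma FDR 3.82e-08). TIM 5 had a summed adipocyte marker FPKM of 114, and the next libraries, TIM 1 and TIM 2, had 29.2 and 16.5. TIM 1 was second for Lipe (1.22 FPKM), and TIM 2 second for Mrap (0.562 FPKM). Both genes are also known from fat cells, whose part in these values was not tested.

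**Figure D3:**
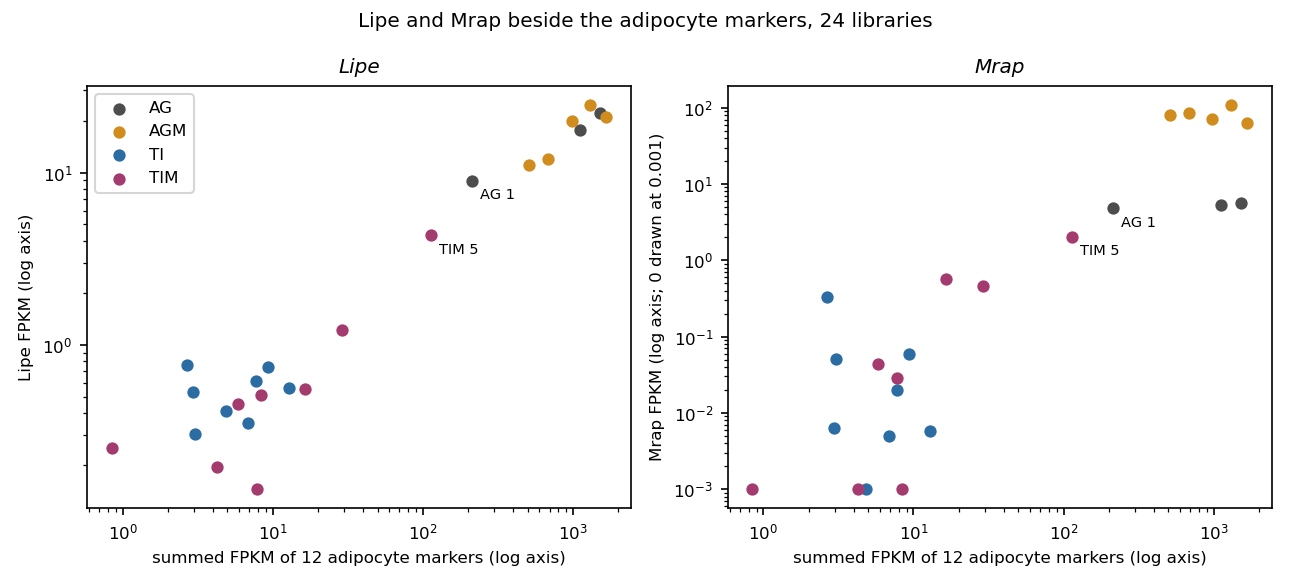
FPKM of Lipe and Mrap in 24 libraries against the summed FPKM of 12 adipocyte markers, both on log axes, coloured by group; a value of 0 is drawn at 0.001. AG library 1 has the lowest Lipe of the glands (8.98 FPKM) and TIM library 5 the highest of the tumors (4.33 FPKM), and on the marker axis they too are the lowest gland and the highest tumor.

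Soat1 was at 0.112 to 0.479 FPKM in TIM (median 0.298; log2 fold change -3.46 ± 0.10, SE; limma FDR 8.33e-18) and Scarb1 at 0.935 to 2.01 FPKM (median 1.13; -3.86 ± 0.26, SE; limma FDR 1.56e-11). Abca1 ranged from 0.212 to 1.37 FPKM (median 0.438; log2 fold change -1.19 ± 0.19, SE; limma FDR 1.83e-05). Npc1 was at 0.480 to 1.02 FPKM (median 0.689; log2 fold change -0.31 ± 0.11, SE; limma FDR 0.0211), and leaving out AG library 1, 2 or 3 ended this call (limma FDR 0.0576, 0.0788 and 0.0552). Akr1b7 was at 0 in 4 TIM libraries and reached 1.72 FPKM in TIM 5 (log2 fold change -4.13 ± 0.42, SE; limma FDR 2.31e-08). Every TIM library of these 5 genes was below every AG library.

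AGM was compared with AG to ask how glands with the MYCN transgene differ from glands without Cre, again with run and group confounded. Nr5a1, Nr0b1, Mc2r, Mrap and Akr1b7 were higher in AGM, 5 of 10 genes against 14.6% of tested genes, and no gene was lower against 14%. Of these, Nr0b1 passed the expression filter through AGM alone and had to be higher there, so its part in the count is a description. Every AGM library exceeded every AG library for these 5 genes and for Npc1, as it did for 29.4% of tested genes. The 5 genes of cholesterol transport, Scarb1, Soat1, Lipe, Npc1 and Abca1, did not pass. When FPKM were scaled anew to the total outside the 126 genes above 1000 FPKM, the median of all genes went from -0.00231 to -0.27 on the log2 scale, and the share of higher genes among all calls from 51.2% to 20%. The 5 rises were past the threshold under that scaling too, and Soat1 and Abca1 were then lower.

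Nr5a1 was at 56.8, 42.8, 51.6, 53.5 and 53.9 FPKM in AGM, a mean 6.497-fold that of AG (log2 fold change 2.55 ± 0.081, SE; limma FDR 1.21e-17). Mc2r was at 46.3, 48.0, 52.2, 42.5 and 32.6 FPKM, a mean 12.1-fold that of AG (3.27 ± 0.10, SE; limma FDR 1.21e-17). Mrap was at 70.5, 62.2, 81.1, 86.2 and 107.9 FPKM, a mean 15.5-fold that of AG (3.70 ± 0.26, SE; limma FDR 9.72e-11). The regulator and both receptor genes thus rose by unequal factors. Akr1b7 was at 440.3, 549.6, 1020.2, 464.9 and 876.6 FPKM, a mean 30.8-fold that of AG (4.86 ± 0.45, SE; limma FDR 1.65e-08), and its value in AGM library 3 puts it among the 126 genes above 1000 FPKM.

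Nr0b1 stood at a few reads in AG and at a high level in AGM. It was at 169.6, 131.6, 148.5, 164.7 and 104.7 FPKM in AGM, or 15848 to 25778 reads per library, against 2 to 3 reads in AG (log2 fold change 7.14 ± 0.15, SE; limma FDR 1.65e-21). The 8 reads of the 3 AG libraries together are too few for a ratio to be read closely. Gata4, Nr5a2 and Wt1, other regulators of gonad and cortex development, had this form too, with 2 to 4, 2 to 3 and 1 read per AG library and at least 4269, 5828 and 2855 reads per AGM library. These regulators were the 3 with the largest change of their list in AGM vs AG (log2 fold changes of 4.61, 5.52 and 3.61). Nr0b1, Gata4, Nr5a2 and Wt1 reached 1 FPKM in AGM libraries alone. They passed the filter through the group where they are high, so their changes and FDR are descriptions. AG and AGM came from separate runs, so run and group cannot be told apart for these genes.

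Scarb1 was at 35.7, 38.9, 59.4, 36.7 and 51.9 FPKM in AGM, overlapping AG (log2 fold change 0.47 ± 0.28, SE; limma FDR 0.215). Soat1 was at 10.8, 11.4, 14.4, 10.5 and 8.78 FPKM (-0.22 ± 0.11, SE; limma FDR 0.157). It was past the threshold with FPKM scaled anew (-0.65; limma FDR 0.00175) and by limma-voom (-0.71; FDR 0.0298). Leaving out AGM library 3 had the same effect (limma FDR 0.0323). Lipe was at 19.97, 20.9, 11.1, 12.1 and 24.6 FPKM (0.14 ± 0.37, SE; limma FDR 0.819), and its direction flipped under both scalings and without AG library 1. The 2 AGM libraries lowest for Lipe, 3 and 4, were also lowest for the adipocyte markers (513 and 683 FPKM, against 982 to 1676 in the others).

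Npc1 was at 1.36, 1.32, 1.41, 1.504 and 1.43 FPKM in AGM, above every AG library by a small step (log2 fold change 0.19 ± 0.12, SE; limma FDR 0.230). A fit to the AGM and AG libraries alone put it past the threshold (limma FDR 0.00595), and its direction flipped with FPKM scaled anew (-0.068) and with limma-voom (-0.14). Abca1 was at 1.71, 2.77, 1.32, 1.90 and 0.950 FPKM, spread over 2.92-fold and overlapping AG (-0.42 ± 0.21, SE; limma FDR 0.136). It passed with FPKM scaled anew (-0.70; limma FDR 0.0126) and without AGM library 2 (limma FDR 0.0473).

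The rises in AGM were set beside the level of a gene in TI, which mostly came from the same run as AG. Of 178 genes with a mean of at least 1 FPKM in AG and below 0.1 FPKM in TI, 14.6% had an AGM mean more than 4-fold that of AG, Nr5a1, Mc2r and Mrap among them. The share was 3.35% of 1312 genes at 0.1 to 1 FPKM in TI, where Akr1b7, Soat1, Lipe, Npc1 and Abca1 fall, and 0.767% of 4692 genes at 1 to 10 FPKM, where Scarb1 falls. It was 3.25% of 800 genes at 10 FPKM or more, so it did not fall steadily with the TI level. The median ratio was below 1 in each of these classes (0.931, 0.918, 0.870 and 0.953). This is a description with no test, and the classes were set after the values were seen.

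**Figure D4:**
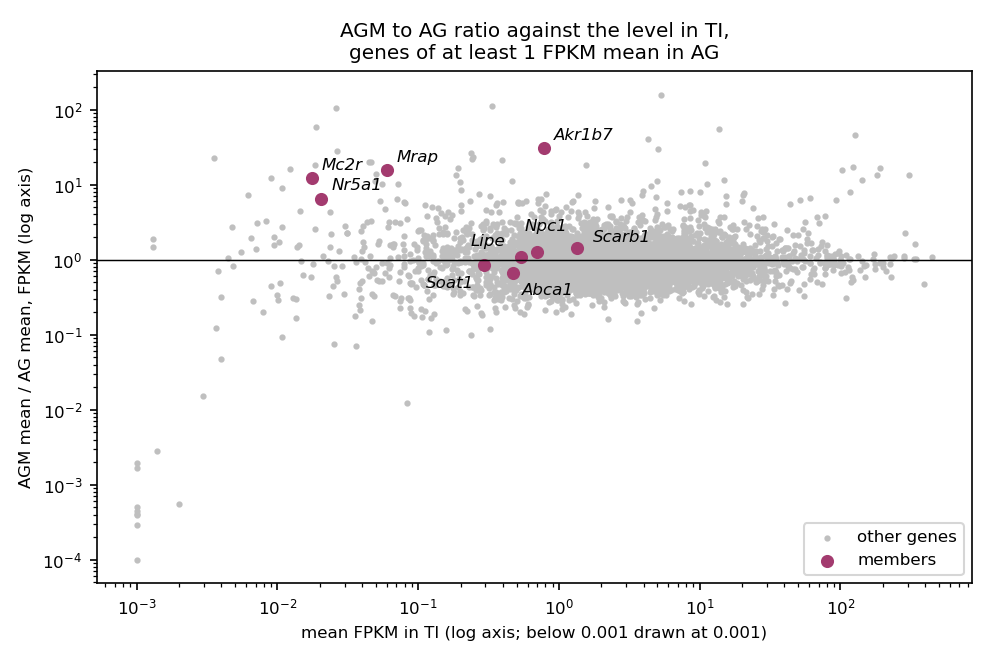
Ratio of the AGM to the AG mean FPKM against the mean FPKM in TI, both on log axes, for genes of at least 1 FPKM mean in AG; 9 of the 10 genes are shown in purple, as Nr0b1 is below that level in AG. Nr5a1, Mc2r, Mrap and Akr1b7 lie 6.497-fold to 30.8-fold above AG, and the others between 0.674 and 1.41 times AG.

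TIM and TI, the tumors with and without the MYCN transgene, did not differ past the threshold in any of the 10 genes (limma), where 22.9% of tested genes passed in either direction (10% higher and 12.9% lower). None of the 10 had an unadjusted p below 0.05 either, and the groups overlapped for each. The log2 fold changes ran from -0.22 ± 0.31 for Akr1b7 to 0.28 ± 0.18 for Mrap (SE; limma FDR 0.650 and 0.259). On the FPKM + 1 scale changes between values near 0 are small, as for Mrap, at means of 0.0596 FPKM in TI and 0.392 in TIM. All but Scarb1 passed the expression filter through the glands, so the lack of calls is a description and not a sign of equal levels. Among all genes, 43.6% of calls were higher in TIM, and 27.1% with FPKM scaled anew. TI was mostly IGF2BP1 +/+, while the paper's TIM genotype sets IGF2BP1 and MYCN on opposite Rosa26 alleles. Most TI samples also came from a run without TIM samples. The MYCN transgene, the IGF2BP1 dose and the run thus cannot be told apart in this comparison.

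TIM compared with AGM asks how tumors with both transgenes differ from glands with the MYCN transgene. All 10 genes were lower in TIM and none higher, against 33.4% and 31.9% of tested genes, and 9 did not overlap, against 20.8%. All but Scarb1 passed the expression filter through the glands and had to be higher there, so these counts are a description. Abca1 was the gene that overlapped (log2 fold change -0.77 ± 0.16, SE; limma FDR 0.000275). The falls were largest for Akr1b7 (-8.99 ± 0.36, SE; limma FDR 3.62e-16), Nr0b1 (-7.03 ± 0.11, SE; limma FDR 6.78e-24) and Mrap (-5.98 ± 0.20, SE; limma FDR 2.08e-17). Npc1 fell least (-0.49 ± 0.090, SE; limma FDR 5.86e-05). With FPKM scaled anew the median of all genes was 0.22 in this comparison, against 0.033 as deposited, and calls were 62.4% higher against 48.8%.

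Tumor libraries differed in the cortex RNA they held. In TI library 6 all of Nr5a1, Nr0b1, Mc2r, Mrap, Scarb1, Soat1, Lipe, Abca1 and Akr1b7 had their highest TI value, and so did Star (1.69 FPKM) and Hsd3b1 (3.19 FPKM). As a percent of the AG mean, TI 6 held 1.63% of Nr5a1, 3.66% of Mc2r, 6.28% of Mrap and 21.1% of Akr1b7, and 0.931% to 2.26% of the 5 enzymes Star, Cyp11a1, Hsd3b1, Cyp21a1 and Cyp11b1. As a percent of the AGM mean the same library held 0.251%, 0.302%, 0.405% and 0.684% of these genes and 0.136% to 0.456% of the enzymes. The 8 tumors differed little in Soat1 by contrast, between 1.76% and 2.60% of the AG mean in TI.

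TIM library 5 had the most enzyme RNA of its group, 0.281% to 2.65% of the AG means. Its members did not follow in step. Mrap stood at 38.9% of the AG mean, Lipe at 26.7%, Akr1b7 at 7.89% and Scarb1 at 6.38%, whereas Nr5a1, Nr0b1 and Mc2r had no read. The labels place 1 TI and 2 TIM samples in the adrenal gland, and which columns these are is not known.

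**Figure D5:**
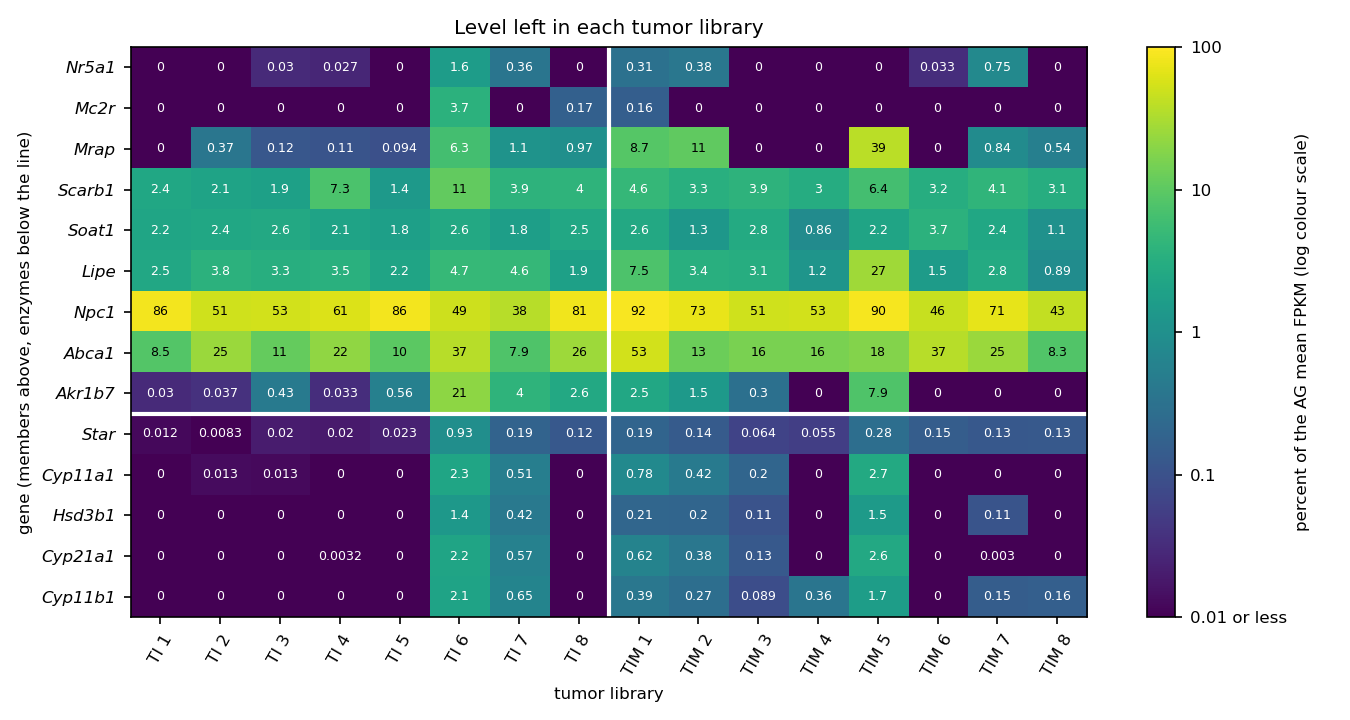
Level of 9 of the 10 genes (all but Nr0b1) and of 5 cortex enzymes in each of 16 tumor libraries, as percent of the AG mean FPKM, on a log colour scale with the value in each cell. TI 6 and TIM 5 stand out in the enzymes, TIM 5 also in Mrap (38.9%) and Lipe (26.7%), and Npc1 stays at 37.8% or more throughout.

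Within TIM, the genes with at least 10 reads in the median library were compared with a cortex enzyme score, the mean log2(FPKM + 1) of the 5 enzymes. The score was 1.34 in TIM 5 and 0.490 in TIM 1, and 0.0708 to 0.372 in the others. In TIM 4, TIM 6 and TIM 8, Cyp11a1, Hsd3b1 and Cyp21a1 had no read, so the score is low and coarse there. Lipe followed the score (Pearson r = 0.99, exact permutation p = 0.000223, adjusted 0.00218 over 11 relations, 6 in TI and 5 in TIM; Spearman rho = 0.93, exact permutation p = 0.00223, adjusted 0.0246; n = 8). Without the 2 libraries farthest from the median score, TIM 1 and TIM 5, r was 0.78. These libraries were also the highest in adipocyte markers. Npc1 rose with the score as well (r = 0.74, exact permutation p = 0.00412, adjusted 0.0151; rho = 0.88, exact permutation p = 0.00724, adjusted 0.0266), and r was 0.77 without TIM 1 and TIM 5. Scarb1 had r = 0.90 (exact permutation p = 0.0105, adjusted 0.0289) and rho = 0.81 (exact permutation p = 0.0218, adjusted 0.0599), but r was 0.19 without these libraries and so rested on them. Soat1 and Abca1 had r = 0.053 and 0.048 (exact permutation p = 0.913 and 0.905, both adjusted 0.913).

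Within TI the score was 1.47 in library 6 and 0.588 in library 7, apart from 0.00496 to 0.0588 in the other 6 libraries. Coefficients over all 8 therefore lean on TI 6 and TI 7 and are not read here. The 6 others had enzymes at or near 0. Akr1b7 was highest in TI 6 (4.58 FPKM), TI 7 (0.867 FPKM) and TI 8 (0.568 FPKM), which were also the 3 libraries with the highest scores. The other 5 libraries had at most 0.122 FPKM. Among the 6 libraries without TI 6 and TI 7, Akr1b7 had r = 0.98 with the score (exact permutation p = 0.0222, adjusted 0.133 over 6 genes) and rho = 0.71 (exact permutation p = 0.136, adjusted 0.408). Without the 2 libraries then farthest from the median, r was 0.59 over 4 libraries. None of the 6 genes passed the adjustment there, Lipe having r = -0.67 (exact permutation p = 0.0653, adjusted 0.196) and rho = -0.77 (exact permutation p = 0.103, adjusted 0.408).

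The pattern of Nr5a1 over the 24 libraries was most like that of X2200002J24Rik (Spearman rho = 0.90), Slc19a2, a thiamine transporter (0.88), Hs3st6 (0.87), Hps1 (0.87) and Hsd3b1 (0.87). These values are descriptions across 24 libraries that share 4 groups. Of them Hsd3b1 is a cortex enzyme, at 234 FPKM in AG, 1344 in AGM, 0.521 in TI and 0.626 in TIM.

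The other genes of the pathway were counted from lists chosen with earlier results known. The shares to read them against are those over all tested genes, 27.7% lower and 24.6% higher in TI, 28.5% and 22.5% in TIM, and 14% and 14.6% in AGM, each against AG. Genes that passed the expression filter only through the groups where they are high had to be higher there, so the list counts are in part a description. Of 14 tested genes in the list of transcription factors and cofactors of the cortex, the 10 genes left out, 9 were lower and 1 higher in TI than in AG, and 7 lower and 1 higher in TIM. Dab2, a trafficking adaptor, fell by 3.50 ± 0.13 in TI and 3.52 ± 0.13 in TIM on the log2 scale (SE; limma FDR 1.93e-16 and 1.78e-16), and Gata6 fell by 2.18 and 1.96 (limma FDR 2.02e-09 and 1.18e-08). Both passed the expression filter through the glands and had to be higher there, so these falls are a description. Cited2, a co-activator, rose by 2.00 in TIM (limma FDR 6.24e-07). Of 15 tested genes of ACTH and cAMP signalling, 7 were higher and 5 lower in TI, and 5 and 5 in TIM. With 15 genes, the counts in TIM are near the shares of all tested genes. Adcy1, an adenylyl cyclase of neurons, rose by 1.85 and 1.80 in TI and TIM (limma FDR 0.000191 and 0.000269). It reached 1 FPKM in tumor libraries alone and passed the expression filter through them, so this rise and its FDR are a description. Prkar2b, a regulatory subunit of protein kinase A, fell by 2.03 and 2.48 (limma FDR 1.54e-05 and 9.97e-07).

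Of the 11 steroid synthesis enzymes and carriers, 10 were lower in TI and 10 in TIM, and Cyp11b2, near 0 in AG, was not called. In AGM 8 of them were higher and none lower. Cyp11b2 passed the expression filter through AGM alone. Star, Cyp11a1, Hsd3b1, Hsd3b6, Cyp21a1 and Cyp11b1 passed it through the glands, so these counts are a description. The AGM mean was 2.04-fold that of AG for Star, 5.73-fold for Hsd3b1, 7.502-fold for Cyp11b1, 11.3-fold for Cyp21a1 and 16.6-fold for Cyp11a1. Of 20 tested lipid droplet and sterol ester genes, 13 were lower and 3 higher in TI, 12 lower and 2 higher in TIM, and 6 higher and 1 lower in AGM. Lipa, the lysosomal acid lipase, fell from 10.1 ± 0.104 FPKM in AG to 0.889 ± 0.251 in TI and 0.920 ± 0.279 in TIM (log2 fold changes of -2.56 and -2.54; limma FDR 3.92e-13 and 4.31e-13).

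Of 14 tested genes of cholesterol efflux and its sensor LXR, 5 were lower and 1 higher in TI, 6 lower and 2 higher in TIM, and 7 higher and none lower in AGM. The counts of lower genes lie not far above the shares of all tested genes. Srebf1, which drives fatty acid synthesis, fell by 2.06 and 1.62 in these tumors (limma FDR 5.65e-05 and 0.000733). Apoa1 rose in AGM (log2 fold change 3.77 ± 1.12, SE; limma FDR 0.0148), at 10.7, 2.43, 0.343, 277 and 326 FPKM in libraries 1 to 5. Alb, the albumin gene that marks liver cells, was at 20.9, 4.69, 0.697, 610 and 677 FPKM in the same libraries, in the same order. Apoa1 and Lcat, another gene of the list, reached 1 FPKM in AGM libraries alone and passed the expression filter through them. Their changes in AGM and their part in its count are thus a description. The part of liver RNA in the counts of this list in AGM was not tested. Of the relatives of Akr1b7, the 3 tested, Akr1b10, Akr1b8 and Akr1b3, fell in TI by 2.06, 1.66 and 1.39 and in TIM by 2.09, 2.17 and 1.24 (limma FDR 0.00037 or lower). In AGM only Akr1b10 of these passed, at 0.63 (limma FDR 0.00333). Akr1b10 reached 1 FPKM in gland libraries alone, so its falls in the tumors are a description.

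Markers of other cells are given as sums by group. The summed FPKM of 11 chromaffin and sympathoblast markers was 141 to 204 in AG and 1480 to 2555 in AGM. The tumors ranged from 200.4 to 1843 in TI, where library 6 was highest, and from 215 to 4801 in TIM, where library 5 was. Endothelial markers (7 genes) summed to 21.3 to 22.5 in AG and 17.6 to 21.7 in AGM, against 3.04 to 30.4 for TI libraries and 1.68 to 11.2 for TIM libraries. Capsule markers (7 genes) summed to 15.6 to 18.7 in AG, 8.06 to 14.0 in AGM, 4.47 to 39.8 for TI libraries and 2.91 to 21.1 for TIM libraries. The tumor sums rest largely on Col1a1, at a mean of 1.99 FPKM in AG, 10.6 in TI and 9.92 in TIM. Every other capsule marker averaged lower than AG in both tumor groups, Rspo3 at 1.37 FPKM in AG, 0.00944 in TI and 0.000899 in TIM. Macrophage markers summed to 86.7 to 176 in AGM and 50.0 to 119 in TIM. Pancreas acinar markers (10 genes) summed to at most 0.785 in AG and TI, to 28496 to 428577 in AGM and to 0.0553 to 3589650 in TIM. These sums rest on few acinar genes, as 3 averaged at least 1 FPKM in AGM and 5 in TIM. In AGM Cpb1 was at 28333 to 57986 FPKM, Cpa1 averaged 0.00124 FPKM, and Ctrb1 was at 0 in 4 of 5 libraries. The acinar markers thus did not move together. The part of all these marker genes in the differences of the 10 genes was not tested.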

How the data were processed

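Poly(A)-enriched, strand-specific libraries were made from bulk tissue. Per the labels, the authors used cutadapt 2.8, HISAT2 2.1.0, SAMtools 1.10, featureCounts 2.0.0 and edgeR 3.40 with the mouse genome mm39, and per their methods ComBat-seq for batch correction and TMM normalization. The deposited values used here are the authors' FPKM. Their columns of log2 fold change, p-value and FDR against AG were not used. Each column was given its group by its name.

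limma 3.58.1 (R 4.3.3; intensity trend) was fitted to log2(FPKM + 1) of the 10171 genes that reached 1 FPKM in 3 or more libraries, with 4 groups sharing 1 spread and Benjamini-Hochberg adjustment over all tested genes (FDR below 0.05). P-values measure the spread between samples. On simulated data of these genes for TI vs AG, 93% of 200 genes changed by 2 on the log2 scale were recovered. The 10 genes and all lists, as well as the numbered libraries described singly, were chosen with earlier results of these data known. Named genes of other lists are at most the 3 with the largest change per comparison, and genes set beside a result. Relations within tumors used 40320 exact permutations. Positions are from GENCODE M39 on GRCm39, promoters from RefSeq on GRCm38.p6. Alternatives were the pseudocount, filters, spread, scaling, limma-voom (library sizes outside genes above 1000 FPKM) and leaving out libraries.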

Additional observations from a re-analysis of the deposited data

Results flagged for a closer look

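The gap from a library to its nearest, against the whole range of its group, was checked in 30 gene and group combinations, not only those of tumors. Single tumor libraries stood apart in 9. Normally distributed values would give about 1 in 20, a rate that skewed FPKM near 0 need not follow. Flags in the same library are not independent either, so the count is a description. That rate does not hold for Nr0b1 in TI and Mc2r in TIM, where every other library was at 0, nor closely for other genes with many libraries at 0. In TI it was library 6 each time, with 0.130 FPKM of Nr5a1 (next 0.0284), 0.0105 FPKM of Nr0b1 (next 0), 0.134 FPKM of Mc2r (next 0.00619), 0.330 FPKM of Mrap (next 0.0593) and 4.58 FPKM of Akr1b7 (next 0.867). In TIM it was library 5 for Mrap (2.04 FPKM, next 0.562), Lipe (4.33 FPKM, next 1.22) and Akr1b7 (1.72 FPKM, next 0.545). Mc2r in TIM was at 0.00578 FPKM in library 1, a single read, with 0 in the others. Without TI 6, the limma calls of Nr5a1, Mc2r, Mrap and Akr1b7 in TI vs AG were past the threshold, as were those of Mrap, Lipe and Akr1b7 in TIM vs AG without TIM 5 and that of Mc2r without TIM 1.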

How the results depend on the processing

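Requiring 1 FPKM in every library left none of the 10 genes and, of all genes, 1627 calls in TI vs AG, 1534 in TIM vs AG, 569 in AGM vs AG, 737 in TIM vs TI and 1944 in TIM vs AGM, as fewer genes were tested. With only the compared groups setting the spread, 6312 genes passed in AGM vs AG and 1309 in TIM vs TI. With FPKM scaled anew, 4428 passed in AGM vs AG, where 7 of the 10 genes were called. Leaving out 1 library gave 1727 to 3319 calls in AGM vs AG, the lowest counts coming without an AG library, and 8 to 9 of the 10 genes in TI vs AG and TIM vs AG, 5 to 6 in AGM vs AG, 0 in TIM vs TI and 10 in TIM vs AGM. Directions flipped with FPKM scaled anew in AGM vs AG (Lipe -0.30, Npc1 -0.068) and TIM vs TI (Scarb1 -0.050, Npc1 -0.047). With limma-voom they flipped for Nr0b1 in TIM vs AG (-1.03), Lipe (-0.32) and Npc1 (-0.14) in AGM vs AG, and Nr5a1 (0.31), Lipe (-0.053) and Npc1 (-0.11) in TIM vs TI. Without 1 library, Lipe in AGM vs AG ran from -0.21 to 0.40, and in TIM vs TI Nr5a1 ran from -0.016 to 0.014, Scarb1 from -0.054 to 0.18, Soat1 from -0.058 to 0.00064, Lipe from -0.083 to 0.23, Npc1 from -0.022 to 0.044 and Akr1b7 from -0.38 to 0.052. None of the flipped values was past the threshold, and the cause was not tested. Without the libraries farthest from the median enzyme score, r with that score took the opposite sign for Lipe (from 0.68 to -0.67) and Npc1 (from -0.51 to 0.36) in TI, where the values over all 8 libraries rest on TI 6 and TI 7, and for Soat1 (from 0.053 to -0.23) and Abca1 (from 0.048 to -0.35) in TIM. The relation within the 6 other TI libraries was added after seeing the data. An edgeR test of the recovered reads was planned and not run, since the deposited values are FPKM. No paired analysis was possible because the columns carry no replicate number. Reads limit Nr5a1, Nr0b1 and Mc2r in the tumors, where most libraries hold 3 reads or fewer.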
